A study of Homo sapiens with 6 samples.

Results

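The EGR family comprises 4 zinc finger transcription factors, EGR1, EGR2, EGR3 and EGR4, and was followed here together with NAB1 and NAB2, the corepressors that bind EGR proteins. These 6 genes were found by symbol among the 63643 genes of the count table, and all 6 had enough counts to be tested. RNA came from the established cell line HEK293T, of human embryonic kidney, in a form deleted for GLO1, the glyoxalase by which cells chiefly dispose of methylglyoxal (MGO), a reactive by-product of sugar breakdown. The MGO group (3 libraries) received 60 µM MGO for 4 h, and the Control group (3 libraries) was left untreated. Both groups carry the deletion and were grown in the same high-glucose medium, and the labels do not say whether the deleted line is 1 clone. The study asked whether MGO changes transcripts of the integrated stress response, a pathway that lowers translation and raises stress transcription factors.

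EGR genes are immediate early genes: their transcription is switched on by growth factors and by stress through MAP kinases, without new protein synthesis, and their mRNAs are short-lived. MAP kinases act on serum response factor (SRF), which binds the CArG box, and on its ETS-type partners, while CREB-type factors bind the cyclic AMP response element, whose core is ACGTCA. EGR proteins in turn bind GC-rich sites such as GCGTGGGCG and GCGGGGGCG. NAB2 is itself known as an EGR-induced gene, and the NAB proteins dampen EGR activity as negative feedback.

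Because the EGR genes rose together, the bases before the start sites of those in the promoter table are shown, with those of NAB1 as a member that fell. That table, from RefSeq (GRCh38.p14), held EGR1, EGR2, EGR4, NAB1 and NAB2, and each window covers the 250 bases before a start. Capitals mark the CArG box (CC, 6 bases that are A or T, then GG) and ACGTCA in the EGR genes, and in NAB1 the opposite strand of GCGGGGGCG. EGR1 is shown at chr5:138465229-138465478 on the plus strand, and EGR2 at chr10:62816367-62816616 on the minus strand, the start of its 3 RefSeq starts that lies nearest the end of the gene. NAB1 is shown at chr2:190648645-190648894 on the plus strand. Of EGR4, on the minus strand, only chr2:73293706-73293798 is shown, since GENCODE places the rest of its window in the first exon.
EGR1: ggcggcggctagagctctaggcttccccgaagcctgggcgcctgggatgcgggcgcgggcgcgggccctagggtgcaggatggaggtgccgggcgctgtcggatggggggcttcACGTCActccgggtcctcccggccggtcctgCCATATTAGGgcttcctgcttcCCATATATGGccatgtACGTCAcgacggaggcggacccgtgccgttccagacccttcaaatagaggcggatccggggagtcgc
EGR2: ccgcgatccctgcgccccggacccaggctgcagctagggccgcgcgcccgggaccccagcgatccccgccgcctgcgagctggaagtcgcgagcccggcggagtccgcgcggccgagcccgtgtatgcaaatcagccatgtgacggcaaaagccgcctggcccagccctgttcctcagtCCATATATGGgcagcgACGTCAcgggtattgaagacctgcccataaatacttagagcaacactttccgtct
EGR4: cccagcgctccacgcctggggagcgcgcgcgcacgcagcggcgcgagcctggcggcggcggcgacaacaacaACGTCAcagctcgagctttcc
NAB1: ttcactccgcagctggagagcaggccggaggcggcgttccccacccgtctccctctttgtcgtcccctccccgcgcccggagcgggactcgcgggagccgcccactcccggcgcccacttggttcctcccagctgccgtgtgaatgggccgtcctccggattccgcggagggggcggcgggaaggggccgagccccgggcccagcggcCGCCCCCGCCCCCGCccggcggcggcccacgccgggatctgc

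The EGR1 window held 2 CArG boxes and 2 copies of ACGTCA, and this EGR2 window held 1 of each, while the windows of the other two EGR2 starts held none of the motifs searched. The EGR4 window held 2 copies of ACGTCA and no complete CArG box. Neither motif was in the first 2 NAB1 windows or in the NAB2 window, and the third NAB1 window held 1 ACGTCA. Over all 35116 RefSeq windows of this length, searched on both strands, 1.16% held a CArG box, 7.1% held ACGTCA and 0.0769% held both. GCGGGGGCG, held by 4.72% of all windows, was found once in the NAB2 window. The first 2 NAB1 windows overlap each other, and both held the same 2 overlapping copies of it. GCGTGGGCG was in the second NAB1 window alone among the members, beside 0.72% of all windows. A match is a description of the letters and does not show binding.

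In EGR1 and EGR2 the same CArG box, then 6 other bases, then ACGTCA stood in a row, and in EGR4 the same layout appeared with a middle base of the box that is not A or T. The elements of 22 bases are shown with the box and the ACGTCA in capitals.
EGR1: CCATATATGGccatgtACGTCA
EGR2: CCATATATGGgcagcgACGTCA
EGR4: CCATGTTTGGgcatttACGTCA
They end 62, 50 and 105 bases before the RefSeq start of EGR1, EGR2 and EGR4, and that of EGR4 lies in what GENCODE gives as the first exon. Read on the strand of the gene alone, the complete form was found in 2 of the 35116 windows. The form with 1 base allowed to differ was found in 3, which are those of EGR1, EGR2 and EGR4. The opposite strand was not searched for this layout. The layout, its spacer of 6 bases and the 1 base allowed to differ were taken from these same sequences after they were seen. That these promoters hold it was therefore fixed in advance, and the counts are not independent evidence.

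All 4 EGR genes rose after MGO, NAB1 fell, and NAB2 did not pass the threshold. Levels are given in CPM, counts brought to a common library size and then corrected for composition with TMM, a method that assumes most genes do not change. Log2 fold changes are those of edgeR's quasi-likelihood test, with p-values adjusted over all 23109 genes tested. At an adjusted p under 0.05, 79.3% of the genes tested were called, 38.8% higher in MGO and 40.5% lower, so a call alone sets no member apart from other genes. Scaled by library size alone, 24.5% were higher and 55.8% lower. The libraries of the groups did not overlap in CPM for 81.5% of genes tested, with MGO higher in 39.7% and lower in 41.8%, and among the members they overlapped for NAB2 alone. EGR4, EGR2, EGR1 and EGR3 ranked 1, 7, 8 and 16 among all genes tested by log2 fold change. Only 19 genes (0.0822%) had a log2 fold change of at least 5 with an adjusted p under 0.05, and all 4 EGR genes were among them. In bulk RNA a change per cell and a change in the number of cells that carry a transcript cannot be told apart.

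**Figure D1:**
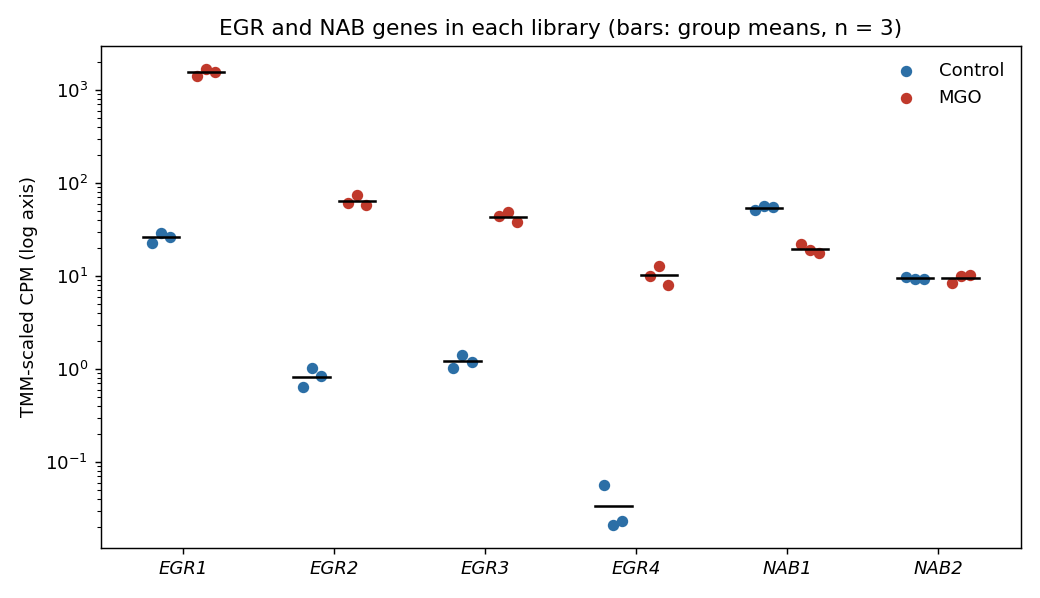
TMM-scaled CPM (log axis) of the 6 genes in the 3 Control (blue) and 3 MGO (red) libraries, with black bars at the group means. The EGR genes lie apart by group, from 26.0 to 1559 CPM for EGR1, NAB1 lies lower in MGO, and the NAB2 groups overlap.

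EGR1 (GRCh38, as all positions here, chromosome 5, 138465490 to 138469315, plus strand) encodes the founding member, a growth-factor-induced activator. Its level was 1414.5, 1690 and 1573 CPM in the MGO libraries and 22.4, 29.2 and 26.5 CPM in the Control libraries. Every MGO library lay far above every Control library, and the 3 libraries of a group differed little among themselves, with coefficients of variation of 8.86% in MGO and 13.2% in Control. The means, 1559 ± 138 and 26.0 ± 3.43 CPM (SD, n = 3), gave a ratio of 59.9 and a log2 fold change of 5.90 (SE 0.12, edgeR adjusted p = 8.76e-12). EGR1 alone took 0.121, 0.138 and 0.130% of all counts in the MGO libraries and 0.00272, 0.0035 and 0.00314% in the Control libraries.

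EGR2 (chromosome 10, 62811996 to 62919900, minus strand), known for its role in hindbrain patterning and in myelination by Schwann cells, was scarce in untreated cells. It had 91, 192 and 145 counts in the Control libraries and 6679, 8328 and 6712 in the MGO libraries. In CPM these were 0.638, 1.01 and 0.835 against 60.7, 73.7 and 58.6, again without overlap. The log2 fold change was 6.26 (SE 0.15, edgeR adjusted p = 1.56e-11).

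EGR3 (chromosome 8, 22687659 to 22693302, minus strand), which acts in muscle spindle development and in T cells, stood at 44.0, 48.9 and 37.9 CPM in MGO. In Control it stood at 1.031, 1.406 and 1.186 CPM. Its log2 fold change of 5.16 (SE 0.13, edgeR adjusted p = 2.21e-11) was the smallest of the EGR genes. A processed transcript on the opposite strand, AC055854.1, overlaps EGR3 over 3153 bases and had at most 2 counts in any library.

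EGR4 (chromosome 2, 73290929 to 73293705, minus strand), the member known chiefly from neurons and the male germ line, was at the edge of detection in untreated cells. It had 8, 4 and 4 counts in the Control libraries and 1105, 1450 and 909 in the MGO libraries. The ratio of the summed counts, scaled by total counts and TMM factors, was 324 with an exact 95% interval of 199 to 568, and scaled by total counts alone it was 225 (138 to 394). Both intervals cover counting error only. The log2 fold change of 8.30 (SE 0.28, edgeR adjusted p = 1.15e-10) rests on these 16 Control counts, so its size is less certain than that of EGR1. In MGO, EGR4 reached 10.0, 12.8 and 7.93 CPM.

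**Figure D2:**
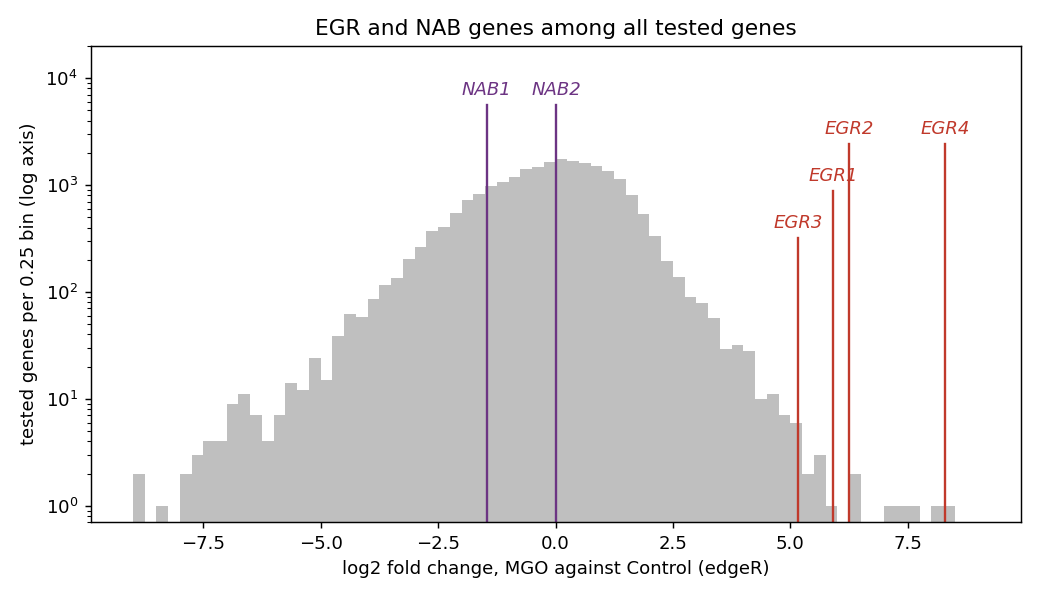
Histogram of log2 fold changes (MGO against Control, edgeR) of the 23109 genes tested, on a log axis in bins of 0.25, with vertical lines at the members. The EGR genes lie in the far right tail between 5.16 and 8.30, NAB1 at −1.46 and NAB2 at 0.02.

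NAB1 (chromosome 2, 190646746 to 190692766, plus strand), the first described EGR corepressor, moved the other way. It stood at 22.1, 18.9 and 17.8 CPM in MGO and at 51.3, 55.9 and 54.7 CPM in Control, with every MGO library below every Control library. The log2 fold change was −1.46 (SE 0.08, edgeR adjusted p = 6.43e-09), from 54.0 ± 2.38 to 19.6 ± 2.27 CPM. Among all genes tested 17.7% had a lower log2 fold change, so the fall of NAB1 lay well inside the spread of all genes. On the opposite strand AC006460.1, classed as antisense, and AC006460.2, classed as a bidirectional promoter lncRNA, overlap NAB1 over 15823 and 3095 bases. They had 23 to 54 and 54 to 131 counts per library beside 2036 to 10574 of NAB1, and did not pass the threshold (edgeR adjusted p = 0.324 and 0.244).

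NAB2 (chromosome 12, 57088894 to 57095476, plus strand), the corepressor known as an EGR-induced gene, was at 8.44, 10.1 and 10.2 CPM in MGO and 9.74, 9.34 and 9.33 CPM in Control. The groups overlapped, with the lowest of all 6 values and the highest both in MGO. The log2 fold change was 0.02 (SE 0.09, edgeR adjusted p = 0.859), and 51.1% of genes tested had a lower one. This value depends on the scaling: with library size alone, which moved the median of all genes by −0.52, NAB2 had a log2 fold change of −0.51 (adjusted p = 0.000108). With each library's trend on gene span removed, an alternative chosen after seeing the data, it was −0.34 (adjusted p = 0.00128, with 38.9% of genes called lower). In neither setting was NAB2 higher in MGO, and with upper quartile scaling it was 0.19 (adjusted p = 0.0671). The last 69 bases of NAB2 overlap STAT6 on the opposite strand, which fell (log2 fold change −0.48, edgeR adjusted p = 0.000166). The sources used here do not give the strand setting of the counting, so a part of either count may belong to the other gene.

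In the libraries of a group the EGR genes tended to be high or low together. MGO replicate 2 held the highest value of all 4 EGR genes, and MGO replicate 3 the lowest of EGR2, EGR3 and EGR4. Control replicate 1 was the lowest Control library for EGR1, EGR2 and EGR3, and the highest for EGR4, where it had 8 counts. With 3 libraries a group these orders are a description.

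Ratios of members within a library need no scaling between libraries, and they differed between the groups without overlap for all 15 pairs. The pairs share genes, so they are not independent, and the share over pairs of all genes was not computed. Taken singly, 81.5% of all genes tested did not overlap in CPM. With 3 libraries against 3 the exact permutation test cannot go below a two-sided p of 0.1, which each pair reached, so none could pass 0.05 (p = 0.1 adjusted over the 15 pairs by Benjamini-Hochberg). The log2 ratio of EGR1 to NAB2 was 7.264 to 7.392 in MGO and 1.2001 to 1.644 in Control, a difference of 5.90 (SE 0.14). For EGR1 and NAB1 the difference was 7.38 (SE 0.18). Among the EGR genes, EGR2 gained on EGR3 by 1.12 (SE 0.08): their log2 ratio was 0.46 to 0.63 in MGO and −0.69 to −0.47 in Control, so the more counted gene of this pair changed from EGR3 to EGR2. EGR1 gained on EGR3 by 0.73 (SE 0.11), and its ratio to EGR2 changed by −0.39 (SE 0.11). The sizes of these differences depend on trends with length. EGR1, EGR2 and EGR3 had log2 fold changes of 5.90, 6.26 and 5.16 in the main fit. These were 6.22, 6.44 and 4.77 with the transcript length trend removed, and 5.60, 6.97 and 4.81 with the gene span trend removed. The log2 ratio of NAB1 to NAB2 was 2.40 to 2.58 in Control and 0.80 to 1.39 in MGO.

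For comparison of levels between genes, CPM were divided by transcript length in kb, the median over each gene's GENCODE basic coding transcripts. EGR1 had 497 ± 44.0 CPM per kb in MGO and 8.29 ± 1.09 in Control. Among 21727 tested genes with a length it ranked between 6948 and 7829 in the Control libraries and between 216 and 237 in the MGO libraries. EGR3 and EGR2 followed in MGO with 28.1 ± 3.55 and 22.6 ± 2.88 CPM per kb. Their ranges touch, at 24.4 to 31.5 and 20.6 to 25.9, but within every MGO library EGR3 was the higher at these lengths. Then came NAB1 (7.92 ± 0.920), EGR4 (4.32 ± 1.04) and NAB2 (3.81 ± 0.393), of which EGR4 and NAB2 did not differ beyond their spread. In Control the order was NAB1 (21.8 ± 0.962), EGR1, NAB2 (3.77 ± 0.0926), EGR3 (0.778 ± 0.121), EGR2 (0.292 ± 0.0662) and EGR4 (0.0141 ± 0.00829). The place of EGR3 depends on the length used: with its longest transcript, of 4336 nt in place of 1553 nt, it had 10.1 CPM per kb in MGO, below EGR2 with 21.7.

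**Figure D3:**
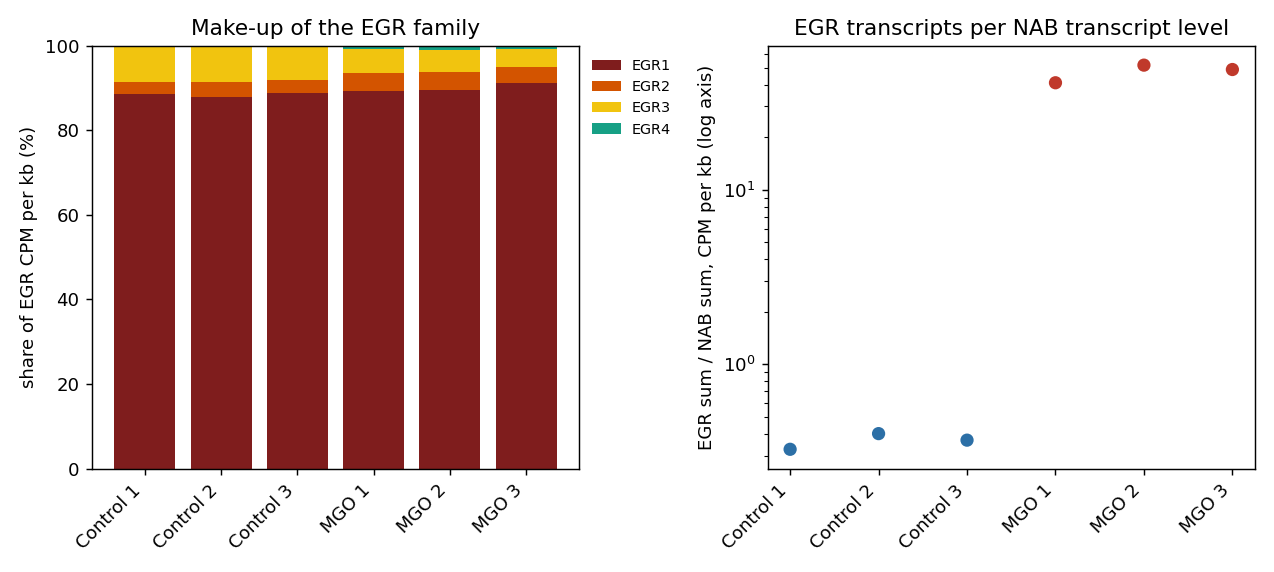
Left, share (%) of EGR1 to EGR4 in the summed CPM per kb of the EGR genes in each library. Right, summed CPM per kb of the EGR genes divided by that of NAB1 and NAB2 (log axis). EGR1 holds 88.0 to 91.2% in every library, and the ratio is 0.327 to 0.402 in Control and 41.0 to 51.7 in MGO.

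The make-up of the family on this length-scaled level changed much less than its total. EGR1 held 88.5 ± 0.435% of the EGR sum in Control and 90.0 ± 1.03% in MGO. EGR3 held 8.28 ± 0.269% in Control and 5.10 ± 0.601% in MGO, EGR2 3.08 ± 0.292% and 4.10 ± 0.304%, and EGR4 0.16 ± 0.116% and 0.782 ± 0.153%. The groups did not overlap for any of the 4 shares, each with the smallest p the exact permutation test allows here (two-sided p = 0.1). With the longest transcripts the EGR1 share was 93.6% in Control and 93.2% in MGO, so the direction of that small difference turned. The EGR sum went from 9.38 ± 1.27 to 552 ± 48.3 CPM per kb and the NAB sum from 25.6 ± 0.873 to 11.7 ± 0.535. Untreated cells held less EGR than NAB transcript on this scale, with a ratio of 0.366 ± 0.0376, and MGO-treated cells more, with a ratio of 47.2 ± 5.55. With the longest transcripts, an alternative chosen after seeing the data, these ratios were 0.557 ± 0.0593 and 66.4 ± 6.57.

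The genes whose profile lay nearest to each member were found by the Euclidean distance over the 6 libraries of log2(CPM + 0.1), taken from the Control mean, among 13386 named genes that averaged 1 CPM or more, the 6 members left out. For EGR1 they were MAFF (distance 0.795), FOSB (0.843) and FOS (1.88), and for EGR2 FOSB (0.556), MAFF (1.193) and FOS (1.51). For EGR3 they were MAFF (0.839), IER2 (1.02) and PPP1R15A (1.22). NAB1 lay nearest to PCNX4 (0.0566), PHF6 (0.0679) and CARNMT1 (0.0796), and NAB2 to HOMEZ (0.0349), INTS15 (0.047) and TONSL (0.0538). For EGR4 the search gave FOSB (0.408), FOS (1.37) and MAFF (1.41), but its Control CPM lay below the added 0.1, which brought its rise to 6.26 in place of 8.30, so these distances depend on that constant. Between the members themselves, EGR1 and EGR2 lay 0.452 apart, nearer than any gene named for either, and EGR1 and EGR3 lay 1.48 apart. The added 0.1 also brought the rise of EGR2 to 6.13 in place of 6.26, while EGR1 kept 5.90. The order of these distances may therefore depend on that constant too.

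**Figure D4:**
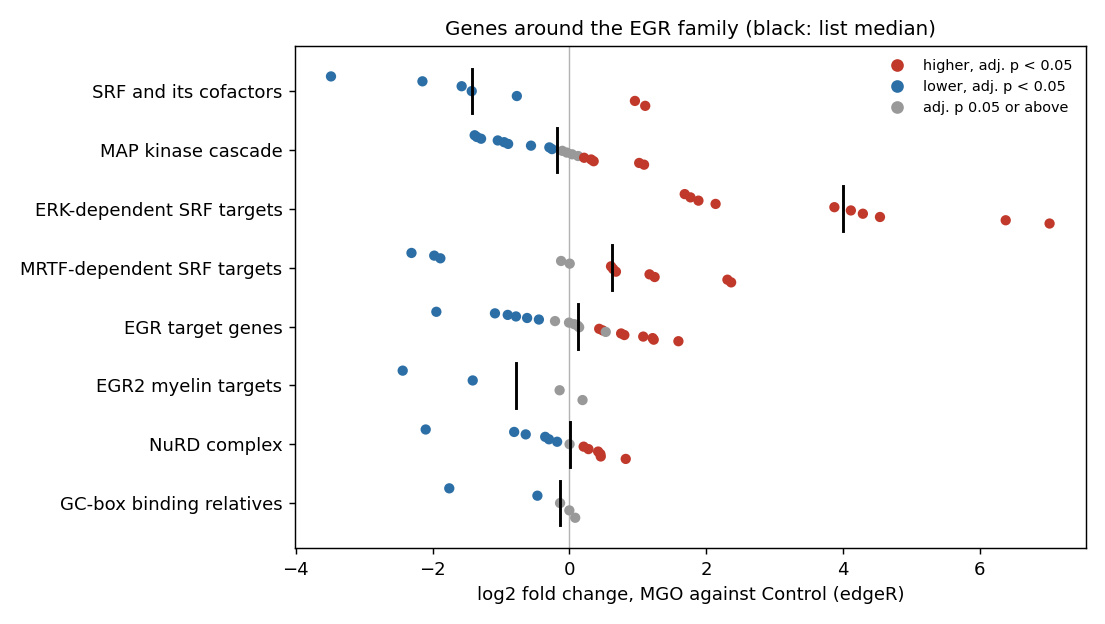
Log2 fold changes (MGO against Control, edgeR) of genes around the EGR family, by list, with points coloured by the edgeR call and black lines at the list medians. All points of the ERK-dependent SRF targets lie to the right of 0, but that list was drawn up with the rise of its genes known. The other lists spread to both sides or, for the myelin genes and GC-box relatives, hold no raised gene. With upper quartile scaling 1 GC-box relative was raised, and 2 with the length trend removed, beside 43.8% and 40.1% of all genes.

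Upstream of the EGR genes, transcripts of SRF and its cofactors went both ways, with 2 of 7 raised and 5 lowered (median log2 fold change −1.43, beside −0.02 over all genes tested). Of all genes tested, 38.8% were higher in MGO and 40.5% lower. SRF itself stood at 111 ± 9.45 CPM in Control and 239.9 ± 13.8 CPM in MGO (log2 fold change 1.11, SE 0.08, edgeR adjusted p = 3.28e-08), and ELK1, an ERK-activated SRF partner, by 0.96 (SE 0.07). ELK3, a partner that represses when not phosphorylated, had a log2 fold change of −2.15 (SE 0.07), and MRTFB, an actin-regulated SRF coactivator, one of −3.48 (SE 0.11). With the trend on transcript length removed SRF stood at 1.82, 2 of the 7 rose and 3 fell, and the list's median was −0.15. Of all genes, 40.1% were then called higher and 37.2% lower.

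Of 18 genes of the MAP kinase cascade 5 rose and 9 fell (median −0.18). Of all genes tested 79.3% were called, 38.8% higher and 40.5% lower. MAPK3, which encodes ERK1, rose by 1.09 (SE 0.07), and MAP2K2, which encodes its activator MEK2, by 1.02 (SE 0.09). RPS6KA5, the kinase MSK1 that phosphorylates CREB and histone H3, had a log2 fold change of −1.38 (SE 0.10), and MAP3K20, the ribotoxic stress kinase ZAK, one of −1.35 (SE 0.07). These are transcript levels, and the activity of the kinases was not measured here. With library size alone 2 rose and 15 fell (median −0.71), beside 24.5% of all genes higher and 55.8% lower. With upper quartile scaling 7 rose and 7 fell, beside 43.8% of all genes higher and 36.0% lower.

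All 10 known SRF targets that respond through ERK and the ETS-type partners rose (median 3.99), led by FOS (7.02, SE 0.11) and FOSB (6.38, SE 0.13). This list was drawn up with the rise of these genes in the same data known, so its count is not independent evidence. SRF targets that respond through the actin-regulated MRTF coactivators divided, with 7 of 12 raised and 3 lowered (median 0.62). Of all genes tested, 38.8% were higher and 40.5% lower. With library size alone 5 of the 12 targets rose and 5 fell (median 0.10), beside 24.5% of all genes higher and 55.8% lower. ACTG1 (2.36, SE 0.49), which most cells express strongly, averaged only 0.197 CPM in MGO and 0.038 CPM in Control, so its value is uncertain. CCN1, a secreted matricellular protein, rose by 2.31 (SE 0.07), from 84.2 ± 3.82 to 418 ± 12.9 CPM. MYH9 and FLNA, which encode nonmuscle myosin heavy chain and filamin A, had log2 fold changes of −2.31 (SE 0.07) and −1.98 (SE 0.08), and stood at −1.61 and −0.32 with the length trend removed.

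Downstream, 20 of 22 genes known as EGR targets were tested, and 8 rose and 6 fell (median 0.13, or −0.39 with library size alone). F3, tissue factor, stood at 6.63 ± 0.298 CPM in Control and 15.6 ± 0.475 CPM in MGO (log2 fold change 1.23, SE 0.07, edgeR adjusted p = 7.76e-09). FN1, fibronectin, had a log2 fold change of −1.94 (SE 0.10) and MMP14, a membrane-bound matrix protease, one of −1.09 (SE 0.12). With the length trend removed these were −0.34 and −0.54. TGFB1, a target known in fibroblasts, was at 48.2 CPM in MGO and 48.4 CPM in Control (log2 fold change 0.00, edgeR adjusted p = 0.964, or −0.53 with library size alone), and was named after its value was seen. Beside the 8 of 20 raised and 6 lowered, 38.8% of all genes were higher in MGO and 40.5% lower. The count depended on the setting. With library size alone 4 rose and 11 fell, beside 24.5% of all genes higher and 55.8% lower. With the length trend removed 11 rose and 4 fell, beside 40.1% of all genes higher and 37.2% lower.

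Of the myelin genes known as EGR2 targets in Schwann cells, 4 of 6 were tested, and none rose and 2 fell. Beside each list in this paragraph stand 38.8% of all genes tested higher in MGO and 40.5% lower. PRX, periaxin, had a log2 fold change of −2.44 (SE 0.09, or −1.42 with the length trend removed) and MBP, myelin basic protein, one of −1.41 (SE 0.07), while PMP22 (−0.14, or −0.67 with library size alone), named after its value was seen, did not pass the threshold. Of 13 subunits of the NuRD complex, which NAB2 is known to recruit through CHD4, 6 rose and 6 fell (median 0.00). With library size alone 1 rose and 9 fell (median −0.52), beside 24.5% and 55.8% of all genes. CHD3 had a log2 fold change of −2.10 (SE 0.07) and CHD4 of −0.81 (SE 0.08), and with the length trend removed they stood at −0.61 and 0.50. MTA2 rose by 0.82 (SE 0.06) and MBD2 by 0.46 (SE 0.06), the latter at −0.07 with library size alone. Of 5 other zinc finger factors that bind GC-rich sites, none rose and 2 fell, SP4 (−1.76, SE 0.09) and SP1 (−0.47, SE 0.09). With the length trend removed SP4 stood at −0.55 and SP1 at 0.56, and 2 of the 5 were called higher and 2 lower. Of all genes, 40.1% were then called higher and 37.2% lower.

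**Figure D5:**
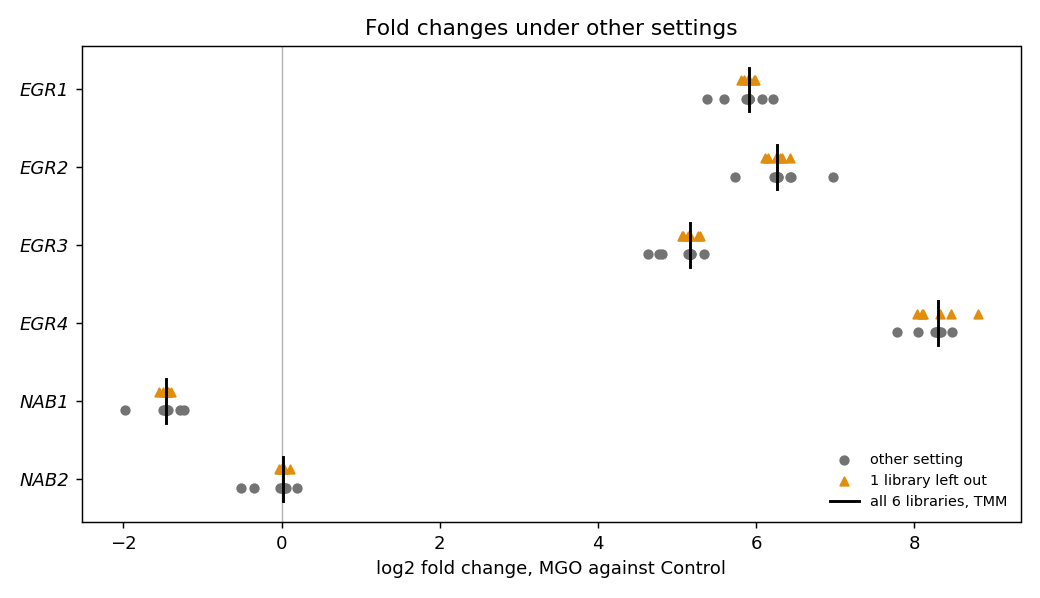
Log2 fold changes of the 6 genes with all 6 libraries and TMM (black lines), under 12 other settings (grey) and with 1 library left out (orange triangles). The lowest value of an EGR gene is 4.64 (EGR3), the highest of NAB1 is −1.23, and NAB2 spans 0.

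With each library's trend on transcript length removed, EGR1, EGR2, EGR3 and EGR4 had log2 fold changes of 6.22, 6.44, 4.77 and 8.28, and NAB1 of −1.44. With the trend on gene span removed EGR2 stood at 6.97, over 1.5 times its value of 6.26 as a fold. Its GENCODE span of 107905 bases is much longer than the 3826, 5644 and 2777 bases of EGR1, EGR3 and EGR4. That span runs from 62811996 to 62919900, but all EGR2 windows before RefSeq starts lie between 62816367 and 62819417. The value of 6.97 therefore depends on the span used.

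Total counts lay between 117427883 and 157639431 per library. Of 8 genes known from HEK293T cells (PAX2, LHX1, NEFL, NEFM, INA, KRT8, KRT18 and CDH2) 7 had at least 1 CPM in Control, and their summed level was 719 to 733 CPM in Control and 1371 to 1551 in MGO. The higher sum came from KRT8 (mean 328 CPM in Control, 981 in MGO) and KRT18 (95.8 and 352), while 5 of the 8 had lower means in MGO, among them CDH2 (184 and 71.4) and NEFL (67.5 and 35.1). Markers of blood, endothelial cells and keratinocytes summed to less than 1 CPM in every library, and the 5 fibroblast markers to 14.2 to 15.4 CPM in Control and 5.21 to 5.78 in MGO, mostly from COL1A1. The part of these markers in the results above was not tested. GLO1 had 97.3 to 106 CPM in MGO and 36.3 to 37.9 in Control. The labels do not say which part of GLO1 was removed, and these values were not used to check it.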

How the data were processed

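PolyA RNA of 6 libraries (3 MGO, 3 Control) was sequenced. The authors deposited raw counts for each gene. Per the submitters' processing notes, the tools were featureCounts 2.0.6, STAR 2.7.0a, Trim Galore 0.6.10, FastQC 0.12.0, DESeq2 1.42.0 and SAMtools 1.19.2, on build hg38. The annotation, the strand setting and the handling of shared reads were not given in the sources used. No 2 libraries of a group agreed within sampling noise (lowest chi-square for each degree of freedom, 3.51). Separate cultures are not stated, and the p-values may therefore reflect technical spread only.

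The tests used R 4.3.3 and edgeR 4.0.16 (filterByExpr, TMM, quasi-likelihood test, no block, Benjamini-Hochberg over all genes tested, threshold 0.05). TMM factors were 0.815 to 0.858 in MGO and 1.186 to 1.214 in Control. SE was taken as the size of the log2 fold change over the root of F. The steps were tested on simulated data. Coordinates and lengths came from GENCODE 29 (GRCh38, the assembly of hg38), which matched 56717 of 63643 genes in the table, and promoters from RefSeq. Motif positions count back from the RefSeq start. The members and lists were chosen with earlier results of these data known. All 6 members are named. Named from each list are, among genes past the threshold, up to 2 with the highest and 2 with the lowest log2 fold change, and for each member its 3 nearest profiles. Some genes of the lists are counted but not reported here by name. Alternatives were other scalings, filters and tools (DESeq2 1.42.0, limma 3.58.1 voom), robust dispersions, a minimum fold change of 1.2 in the test, a block on replicate number, length trends and leaving out each library.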

Additional observations from a re-analysis of the deposited data

How the results depend on the processing

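All 4 EGR genes and NAB1 kept their direction and their call under all 18 alternatives, in which 47.9 to 88.1% of genes tested were called. With 1 library left out, log2 fold changes lay between 5.80 and 5.99 for EGR1, 6.11 and 6.43 for EGR2, 5.07 and 5.29 for EGR3, 8.03 and 8.80 for EGR4, and −1.55 and −1.39 for NAB1. NAB2 turned to −0.51 with library size alone, −0.015 without a filter and −0.34 with the gene span trend removed, and with 1 library left out it lay between −0.030 and 0.11. The causes were not tested. Per-kb levels with the longest transcripts were 10.1 and 0.279 for EGR3, 4.49 and 12.4 for NAB1 in MGO and Control, and 3.49 for NAB2 in Control, since the lengths differ, and the ratio of EGR to NAB sums was 66.4 and 0.557. The EGR1 share was 93.2% in MGO and 93.6% in Control with longest transcripts, and 92.95% and 92.7% without length scaling. Called GC-box relatives numbered 5 with library size alone (all lower), and 4 (2 higher, 2 lower) with the transcript length or the gene span trend removed, beside 2 (both lower); with upper quartile scaling 1 was higher and 2 lower. A test against a 1.2-fold change called 9 MAP kinase genes in place of 14 and 7 NuRD genes in place of 12. It called 71.2% of all genes in place of 79.3%. Scaling by library size alone gave 24.5% of genes higher and 55.8% lower, and upper quartile scaling 43.8% and 36.0%. With the transcript length trend removed 40.1% were higher and 37.2% lower, and with the gene span trend removed 40.8% and 38.9%.

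Same-numbered libraries did not deviate together (correlations of 0.0461, −0.0559 and 0.086), so the numbers were treated as names. A replicate block gave 18168 called genes in place of 18326, and log2 fold changes of 5.91 for EGR1, 6.28 for EGR2, 5.17 for EGR3, 8.30 for EGR4, −1.47 for NAB1 and 0.01 for NAB2. Depth limits the EGR4 fold, which rests on 16 Control counts.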

Other observations

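Genes other than the members that share the motifs of the EGR promoters were counted as a description. Of 194 other tested genes with a CArG box in a RefSeq window, 82 rose (42.3%), beside 41% of the 13443 tested genes with a window. Of 1568 with ACGTCA, 744 rose (47.4%). Of 20 with both motifs in 1 window, 11 rose and 6 fell, with log2 fold changes from −2.01 (CAMTA2, a calmodulin-binding transcription activator) to 3.23 (CCNB1IP1, a cyclin B1 interacting protein). Log2 fold changes of at least 2 were found in 7 of the 194 genes with a CArG box (3.61%). They were found in 52 of the 1568 with ACGTCA (3.32%), in 1 of the 20 with both and in 2.33% of all 13443. The largest log2 fold change among the 20 genes with both motifs, 3.23, was below the 5.16 of EGR3, the smallest of the EGR genes. EGR3 was not in the promoter table, so its motifs were not searched.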
